A study of Mus musculus with 12 samples.

Results

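Ace and 5 other genes of angiotensin peptide processing (Enpep, Lnpep, Mme, Agtrap and Atp6ap2) were chosen by name, with earlier results of these data known, and their RNA was read across every group of hernia-associated fibroblasts (HAFs). The RNA-Seq table held 4 of the 6, namely Ace, Lnpep, Agtrap and Atp6ap2, among 13233 genes in all. Enpep and Mme were not analysed here. Because the choice drew on measured values, the levels of these 4 genes are given as a description, with standard errors and no p-values.

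HAFs are primary fibroblasts cultured from the lower abdominal muscle (LAM) of Arom hum mice, an FVB/N line that carries human aromatase, the enzyme that makes estradiol (E2) from testosterone, on a bacterial artificial chromosome with its own promoter regions. All 12 samples came from this genotype, so no wild-type cells stood beside them. The vehicle group received ethanol and DMSO, the E2 group 10 nM E2, the E2 plus fulvestrant group 10 nM E2 with 100 nM fulvestrant, and the fulvestrant group 100 nM fulvestrant, each for 48 h in 3 replicates. Fulvestrant is an antagonist of the estrogen receptor ESR1 that also leads to its degradation. The sources used here do not say which animals or cultures the replicate numbers stand for, so the spread between replicates may be partly technical.

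In the renin-angiotensin system, renin cuts angiotensinogen to the inactive peptide angiotensin I, and angiotensin-converting enzyme (ACE), a membrane metallopeptidase, removes a dipeptide from it to give angiotensin II. ACE also degrades bradykinin, so it sits at the crossing of the angiotensin and kinin systems. Angiotensin II acts through the AGTR1 and AGTR2 receptors, and aminopeptidases and other peptidases trim it further. Its local production is a known driver of fibroblast activation in several tissues.

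Ace (ENSMUSG00000020681) lies on the plus strand at chr11:105967945-105989964 of GRCm38, the build named mm10 in the deposited data. It has 2 known starts, one for the somatic enzyme and one within the gene for the short testis form, and the gene-level counts do not separate them. The 250 bases before each start, from RefSeq on GRCm38.p6, are shown because the differences of Ace were the largest of the 4 genes, with the same window of Agtr2, the angiotensin receptor gene described later, for comparison. The motifs searched on both strands were the estrogen response half-site GGTCA, the full estrogen response palindrome of 2 facing half-sites, the GC box GGGCGG and the TATA box TATAA, and capitals mark every match.
Ace, somatic start, chr11:105967698-105967947, plus strand: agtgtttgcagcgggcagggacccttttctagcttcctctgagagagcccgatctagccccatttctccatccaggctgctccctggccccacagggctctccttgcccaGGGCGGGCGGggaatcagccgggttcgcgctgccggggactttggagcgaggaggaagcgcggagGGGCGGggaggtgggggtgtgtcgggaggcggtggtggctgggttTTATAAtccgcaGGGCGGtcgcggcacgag
Ace, start within the gene, chr11:105974939-105975188, plus strand: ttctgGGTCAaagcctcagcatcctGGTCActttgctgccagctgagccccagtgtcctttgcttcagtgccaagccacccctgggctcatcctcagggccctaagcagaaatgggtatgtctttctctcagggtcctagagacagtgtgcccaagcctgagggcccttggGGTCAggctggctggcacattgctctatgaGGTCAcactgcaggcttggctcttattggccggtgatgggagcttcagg
Agtr2, chrX:21484374-21484623, plus strand: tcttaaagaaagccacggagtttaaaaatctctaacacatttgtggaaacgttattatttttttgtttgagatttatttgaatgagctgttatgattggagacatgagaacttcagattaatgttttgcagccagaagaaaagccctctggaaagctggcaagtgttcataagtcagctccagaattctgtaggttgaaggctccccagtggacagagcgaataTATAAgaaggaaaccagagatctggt

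The window of the somatic Ace start held 4 GC boxes, of which 2 overlap, and 2 overlapping TATA matches on opposite strands that begin 30 and 29 bases before the start, with 0 half-sites. The window of the start within the gene held 4 half-sites, which begin 245, 225, 79 and 49 bases before the start. It held 0 palindromes, 0 GC boxes and 0 TATA matches. Agtr2 held 1 TATA match, 26 bases before its start, and none of the other motifs. Among 32851 RefSeq promoters of the same length, 35.2% held the half-site, 0.0639% the palindrome, 32.7% the GC box and 22.8% the TATA box, so single matches of 3 of these motifs were common. The share of promoters with 4 half-sites was not counted.

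The libraries held 18827792 to 44040507 reads on listed genes (median 31703872), and the lowest value of any gene was 10 reads. Replicate 1 stood apart from replicates 2 and 3 in all 4 groups: the first principal component, with 70.8% of the variance, ran from -60.5 to -43.5 in replicate 1 and from 15.1 to 35.6 in the others. The replicate number was therefore kept as a block in the limma fit, and results are also given without replicate 1. Of the fibroblast markers, 10 of 10 were in the table, against 1 of 8 endothelial, 3 of 7 macrophage and leukocyte, 4 of 8 pericyte and smooth muscle, 0 of 8 myogenic and 0 of 4 adipocyte markers. Pgr, a classic estrogen target, rose 3.68-fold with E2 over vehicle (log2 difference 1.88, limma adjusted p = 0.0343) and E2 exceeded E2 plus fulvestrant 9.73-fold (adjusted p = 4.69e-05). The first Pgr call was lost under 14 of 21 alternatives, the second under none. The second log2 difference was 3.28 and ran from 2.30 to 3.36 across the alternatives. With E2 plus fulvestrant Pgr was read from only 15 to 31 reads.

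Ace RNA was higher in both groups that received fulvestrant and was at about the same level with vehicle and E2. In normalized counts for replicates 1, 2 and 3, Ace was at 50.7, 366.3 and 348.8 with vehicle and at 52.3, 347.8 and 340.1 with E2. It was at 389.0, 991.7 and 1095 with E2 plus fulvestrant and at 358.4, 898.5 and 955.2 with fulvestrant alone. The group means were 255.3 ± 177 with vehicle, 246.7 ± 168 with E2, 825.4 ± 381 with E2 plus fulvestrant and 737.4 ± 329 with fulvestrant (SD, n = 3). Replicate 1 was the lowest sample of each group, and the E2 and E2 plus fulvestrant groups did not overlap, whereas 1 vehicle sample lay above the lowest fulvestrant sample.

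**Figure D1:**
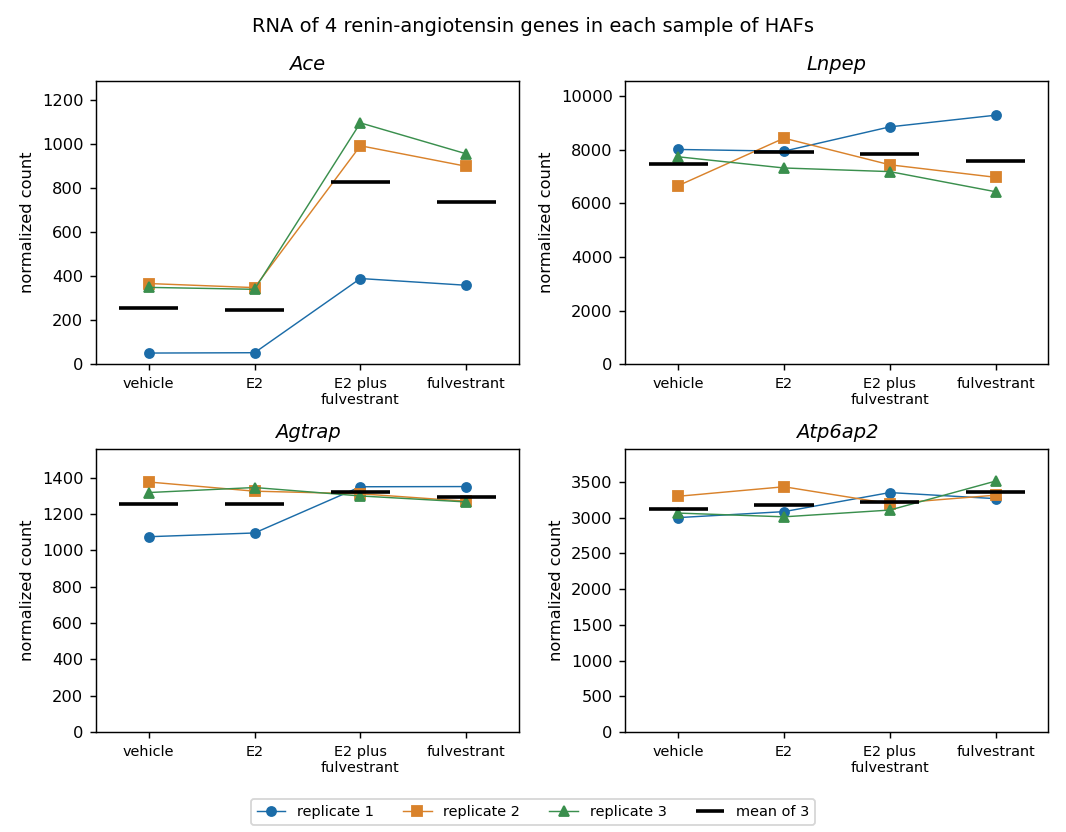
Normalized counts (linear axes from 0) of Ace, Lnpep, Agtrap and Atp6ap2 in each of the 12 samples, by group, with lines joining samples of the same replicate number and black bars for the mean of 3. Ace lay between 50.7 and 366.3 in the 6 samples without fulvestrant and between 358.4 and 1095 in the 6 samples with it, while the group means of the other 3 genes lay close together.

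Compared with E2, Ace was 4.06-fold higher with E2 plus fulvestrant, a difference of 2.02 on the log2(normalized count + 1) scale (SE 0.29). The difference was 2.87 in replicate 1, 1.51 in replicate 2 and 1.68 in replicate 3, so it had the same direction in 3 of 3 pairs and its largest size in the replicate with the lowest Ace level. Among 13233 genes, 4 differed more in this direction. The threshold used for all genes was a limma adjusted p under 0.05 and a fold over 1.2. In this contrast 4.97% of all genes passed it as lower in the E2 group and 4.62% as higher. The contrast bears on how Ace was chosen, so no call is given for the 4 genes.

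Fulvestrant without E2 gave a similar picture. Ace was 3.60-fold higher than with vehicle (log2 difference 1.85, SE 0.29), by 2.80 in replicate 1, 1.29 in replicate 2 and 1.45 in replicate 3, and 8 of 13233 genes had a higher difference. Of all genes, 6.76% passed the threshold as higher with fulvestrant and 5.69% as lower, and for the same reason no call is given for the 4 genes. With CPM scaling in place of the authors' factors, the genes called between fulvestrant and vehicle changed from 895 higher and 753 lower to 688 higher and 951 lower. The Ace difference was 1.59 in that fit. That fit added 1 to CPM values, which are far smaller than normalized counts, so differences of low genes shrink more. Under quantile normalization the Ace difference was 1.85. Without replicate 1 the Ace differences were 1.60 for E2 plus fulvestrant over E2 and 1.37 for fulvestrant over vehicle.

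The differences of Ace with E2 were small beside those with fulvestrant. The difference between E2 and vehicle was -0.02 (SE 0.29), with 0.04, -0.07 and -0.04 in the 3 pairs. Between E2 plus fulvestrant and fulvestrant alone it was 0.15 (SE 0.29), with 0.12, 0.14 and 0.20 in the pairs, so E2 plus fulvestrant was the higher in 3 of 3, and the SE was 0.07 in a fit of only these 2 groups. The 2 groups overlapped. Ordered by mean, the groups ran from E2 through vehicle and fulvestrant to E2 plus fulvestrant. The E2 and vehicle pairs went both ways. The E2 effect with fulvestrant minus that without it was 0.18 (SE 0.40).

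Ace was read from 46 and 53 reads in replicate 1 of the vehicle and E2 groups and from 234 to 1218 reads in the other 10 samples, so its lowest values are also the least precise. Without the block, the standard error of its differences was 0.92 in place of 0.29. The antisense gene Gm11651 overlaps Ace, and the authors counted reads by strand.

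The summed normalized counts of the fibroblast markers ran from 487380 to 552350 with vehicle, 560907 to 623159 with E2, 422512 to 442418 with E2 plus fulvestrant and 391540 to 459609 with fulvestrant. By limma 5 of the 10 were higher with E2 over E2 plus fulvestrant, beside 4.62% of all genes, and 4 fell with fulvestrant over vehicle, beside 5.69%. At an unadjusted p under 0.05 were 6 and 9 of the 10, beside 27.3% and 30.5% of all genes. The median log2 difference of the 10 was 0.48 and -0.37, against -0.01 and 0.01 over all genes. The 5 were Esr1, the gene of the drug target, the matrix gene Lum and the collagen genes Col1a1, Col1a2 and Col3a1, and the 4 were the same without Col1a2. All 5 and all 4 calls were lost without the block, with adjusted p from 0.0925 (Esr1) to 0.992 (Col1a2) for the 5 and from 0.363 (Esr1) to 0.957 (Col1a1) for the 4. For Esr1 and Lum no other alternative lost a call, whereas the collagen calls were lost under 2 to 9 alternatives in all. The 3 collagen genes made up 55.6% to 78.2% of the marker sum. Without them the ranges overlapped in all 4 groups, but each range pools replicate 1 with replicates 2 and 3. Their highest values were 205076 with vehicle, 228101 with E2, 180100 with E2 plus fulvestrant and 175239 with fulvestrant. Dcn, not called, was lower with fulvestrant in replicates 2 and 3: 107287 and 102207 with vehicle against 70600 and 72947. With E2 it was at 115800 and 107933, against 76416 and 78273 with E2 plus fulvestrant. In replicate 1 its pairs went both ways. Vim, of the same list, went the other way, higher with fulvestrant in 6 of 6 pairs (0.29 over vehicle, limma adjusted p = 0.0552, and 0.15 with E2 present, adjusted p = 0.332, neither called). The part of these genes in the Ace values was not tested, and in bulk RNA fewer cells of a type and less RNA per cell cannot be told apart.

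Tek, the 1 endothelial marker in the table and of interest because endothelium is a known source of ACE, had summed counts of 58.4 to 276.5 with vehicle, 65.1 to 166.5 with E2, 83.7 to 259.4 with E2 plus fulvestrant and 70.6 to 192.6 with fulvestrant. Within replicate numbers Tek was higher with E2 plus fulvestrant than with E2 in 3 of 3 pairs, by 0.36, 0.64 and 0.63 on the log2 scale, the same direction as Ace (mean 0.54, limma adjusted p = 0.0686, not called). With fulvestrant minus vehicle its pairs were 0.27, -0.44 and -0.60, unlike Ace, which rose in all 3. Of the macrophage and leukocyte markers, Cd14 was also higher with fulvestrant in 6 of 6 pairs, as Ace was. It was at 98.2, 80.9 and 72.3 normalized counts with vehicle, 85.8, 77.3 and 71.4 with E2, 132.9, 90.7 and 98.9 with E2 plus fulvestrant and 113.0, 105.8 and 133.0 with fulvestrant. Its log2 difference was 0.48 over vehicle (limma adjusted p = 0.0652) and 0.44 over E2 (adjusted p = 0.102), neither called. Cd68 was higher with E2 plus fulvestrant than with E2 in 3 of 3 pairs (0.76, adjusted p = 0.125) but higher with fulvestrant than with vehicle in 2 of 3, and Lyz2 was lower with fulvestrant in 6 of 6 pairs. All 3 of these were at an unadjusted p under 0.05 between E2 and E2 plus fulvestrant, 2 of them with the sign of Ace, and 2 of 3 between fulvestrant and vehicle, where 27.3% and 30.5% of all genes were at that level. Their sum was 233.0 to 487.5 with vehicle, 168.0 to 446.8 with E2, 221.8 to 321.0 with E2 plus fulvestrant and 266.2 to 284.6 with fulvestrant. Per the methods of the study, preplating was used to keep adherent fibroblasts and remove other cells, and the cultures stained for ESR1 and PDGFRA. The part of any remaining endothelial or myeloid cells in the Ace values was not tested.

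Of the 8 endothelial, leukocyte and pericyte markers in the table, Tek included, 1 was called, beside 6.76% of all genes higher and 5.69% lower with fulvestrant over vehicle. It was Notch3, of the pericyte list, which fell by 0.85 with fulvestrant below vehicle (limma adjusted p = 0.0125). That call was lost under 6 alternatives: without replicate 1 (-0.58, adjusted p = 0.0602), 2 (0.0517) or 3 (0.108), without vehicle replicate 1 (-0.66, adjusted p = 0.0517), in a fit of only the 2 groups (0.0754) and without the block (0.772). Myh11, of the same list, went the other way, at 30.9, 8.7 and 13.4 normalized counts with vehicle and 68.4, 49.6 and 16.2 with fulvestrant. It was higher in 3 of 3 of these pairs, as Ace was (log2 difference 1.25, limma adjusted p = 0.0562, not called), and higher with E2 plus fulvestrant than with E2 in 2 of 3.

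Lnpep (ENSMUSG00000023845, minus strand, chr17:17521410-17625050) encodes leucyl-cystinyl aminopeptidase, which cleaves vasopressin and oxytocin and binds angiotensin IV. Its normalized counts for replicates 1, 2 and 3 were 8012, 6661 and 7739 with vehicle, 7948, 8433 and 7321 with E2, 8854, 7440 and 7186 with E2 plus fulvestrant, and 9290, 6973 and 6435 with fulvestrant. All 4 groups overlapped. The difference between E2 and vehicle was 0.08 (SE 0.10), and between E2 and E2 plus fulvestrant 0.02 (SE 0.10). With fulvestrant over vehicle the pairs went both ways, at 0.21, 0.07 and -0.27.

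Agtrap (ENSMUSG00000029007, minus strand, chr4:148077061-148088031) encodes a membrane protein that binds the AGTR1 receptor and promotes its internalization. It was at 1075, 1376 and 1318 normalized counts with vehicle, at 1096, 1326 and 1346 with E2, at 1350, 1312 and 1300 with E2 plus fulvestrant and at 1351, 1271 and 1267 with fulvestrant. In replicate 1 it was lower in the 2 samples without fulvestrant, whereas replicates 2 and 3 had no such gap. The difference between fulvestrant and vehicle was 0.33 in replicate 1, -0.12 in replicate 2 and -0.06 in replicate 3, and its mean was 0.05 (SE 0.09). Without replicate 1 this difference was -0.09.

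Atp6ap2 (ENSMUSG00000031007, plus strand, chrX:12587801-12617049) encodes the (pro)renin receptor, which is also an accessory subunit of the vacuolar proton pump. Its normalized counts were 3002, 3301 and 3065 with vehicle, 3085, 3433 and 3013 with E2, 3352, 3197 and 3107 with E2 plus fulvestrant, and 3267, 3316 and 3513 with fulvestrant. The widest of its differences was 0.11 (SE 0.06), for fulvestrant over vehicle, with 0.12, 0.01 and 0.20 in the pairs, and the 2 groups overlapped. It was the least variable of the 4 genes, with a range over all 12 samples of 3002 to 3513.

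Per kilobase of exon, Atp6ap2 had the highest mean level over the 12 samples, at 1230 normalized counts, above 92.4% of 13149 genes with a known exon length. Lnpep followed at 543.8 per kilobase, above 79.6% of genes, then Agtrap at 302.7, above 63.1%. Ace was the lowest at 97.6, above 30.9% of genes. Its mean per kilobase was 48.3 with vehicle, 46.7 with E2, 156 with E2 plus fulvestrant and 139 with fulvestrant, so Ace stayed below the other 3 genes in each group.

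Of 27 other genes of the angiotensin pathway, 14 were in the table, among them Agtr2 and several peptidases. Agt, Ren1, Agtr1a and Mas1, which encode angiotensinogen, renin and 2 further receptors, were not analysed here. With E2 over vehicle 1 of 14 rose and 0 fell (limma, 3 at an unadjusted p under 0.05, a level that 10.1% of all genes reached), beside 0.0756% of all genes higher and 0.0% lower. With E2 over E2 plus fulvestrant 2 of 14 were higher and 0 lower (4 at an unadjusted p under 0.05, beside 27.3% of all genes), where 4.62% and 4.97% of all genes were called. With fulvestrant over vehicle 1 of 14 rose and 2 fell (5 at an unadjusted p under 0.05, beside 30.5% of all genes), where 6.76% and 5.69% were called. The median log2 difference of the 14 was 0.07, 0.01 and 0.00 in these 3 comparisons, against 0.01, -0.01 and 0.01 over all genes.

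Agtr2, the AT2 receptor gene (ENSMUSG00000068122, chrX:21484544-21489164), moved with both agents. Its normalized counts for replicates 1, 2 and 3 were 1243, 1042 and 965.5 with vehicle and 2096, 2035 and 2049 with E2. They were 922.8, 634.2 and 650.2 with E2 plus fulvestrant and 757.1, 649.7 and 728.2 with fulvestrant. The E2 samples lay above all others, and vehicle and fulvestrant did not overlap. Agtr2 was 1.91-fold higher with E2 than with vehicle (log2 difference 0.93, SE 0.10, limma adjusted p = 0.00455) and 2.84-fold higher than with E2 plus fulvestrant (1.51, adjusted p = 8.59e-06). With fulvestrant it fell by 0.60 below vehicle (adjusted p = 0.00216). The E2 effect with fulvestrant minus that without was -0.91 (SE 0.13), which did not pass over all genes (adjusted p = 0.237) but did without replicate 1 (-1.12, adjusted p = 0.00741).

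Of the Agtr2 calls, the one between E2 and E2 plus fulvestrant was kept without the block (adjusted p = 0.00264), while those of E2 over vehicle (0.262) and of fulvestrant over vehicle (0.151) were not. The E2 call for Agtr2 was also lost without replicate 2 (difference 0.92, adjusted p = 0.252), without replicate 3 (0.86, adjusted p = 0.455), without replicate 3 of the E2 group alone (0.89, adjusted p = 0.066) and without a variance trend (adjusted p = 0.0503). The fulvestrant call was lost without replicate 2 (-0.56, adjusted p = 0.0565). Across all alternatives the adjusted p for Agtr2 ran from 0.00041 to 0.46 for E2 over vehicle and from 1.4e-06 to 0.0046 for E2 over E2 plus fulvestrant.

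Prcp encodes a lysosomal carboxypeptidase that cleaves angiotensin II and angiotensin III at their C-terminal end. It was at 690.4, 611.6 and 595.9 normalized counts with vehicle, 723.0, 566.3 and 602.0 with E2, 486.5, 454.6 and 466.8 with E2 plus fulvestrant and 451.8, 419.9 and 499.5 with fulvestrant. All 6 samples without fulvestrant lay above all 6 with it. The log2 difference was 0.42 for E2 over E2 plus fulvestrant (limma adjusted p = 0.0112) and -0.47 for fulvestrant over vehicle (adjusted p = 0.00516). The first was lost without replicate 2 (adjusted p = 0.102), without replicate 3 (0.0784) and without replicate 1 or 3 of the E2 plus fulvestrant group (0.0583 and 0.0505), the second without replicate 2 (0.0975), and both without the block (0.244 and 0.149). In a fit of only the 2 groups the second was also lost (0.0572).

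Thop1, whose oligopeptidase can turn angiotensin I into angiotensin 1-7, rose 1.22-fold with fulvestrant over vehicle (limma log2 difference 0.29, adjusted p = 0.0249). The groups overlapped, at 732.3, 903.0 and 792.7 against 805.9, 1064 and 1108 normalized counts. This difference was near the fold threshold and was also lost under CPM scaling (0.24), in a fit of only the 2 groups (adjusted p = 0.142), without the block (adjusted p = 0.837), without replicate 2 (0.153) or 3 (0.28), and without vehicle replicate 3 (0.112) or fulvestrant replicates 2 (0.0811) or 3 (0.111). Without replicate 1 the pathway count for fulvestrant over vehicle was 5 in place of 3, with Anpep (-0.30, adjusted p = 0.0221) and Prep (0.40, adjusted p = 0.00184) added, which were at -0.02 and 0.22 in the full fit.

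**Figure D2:**
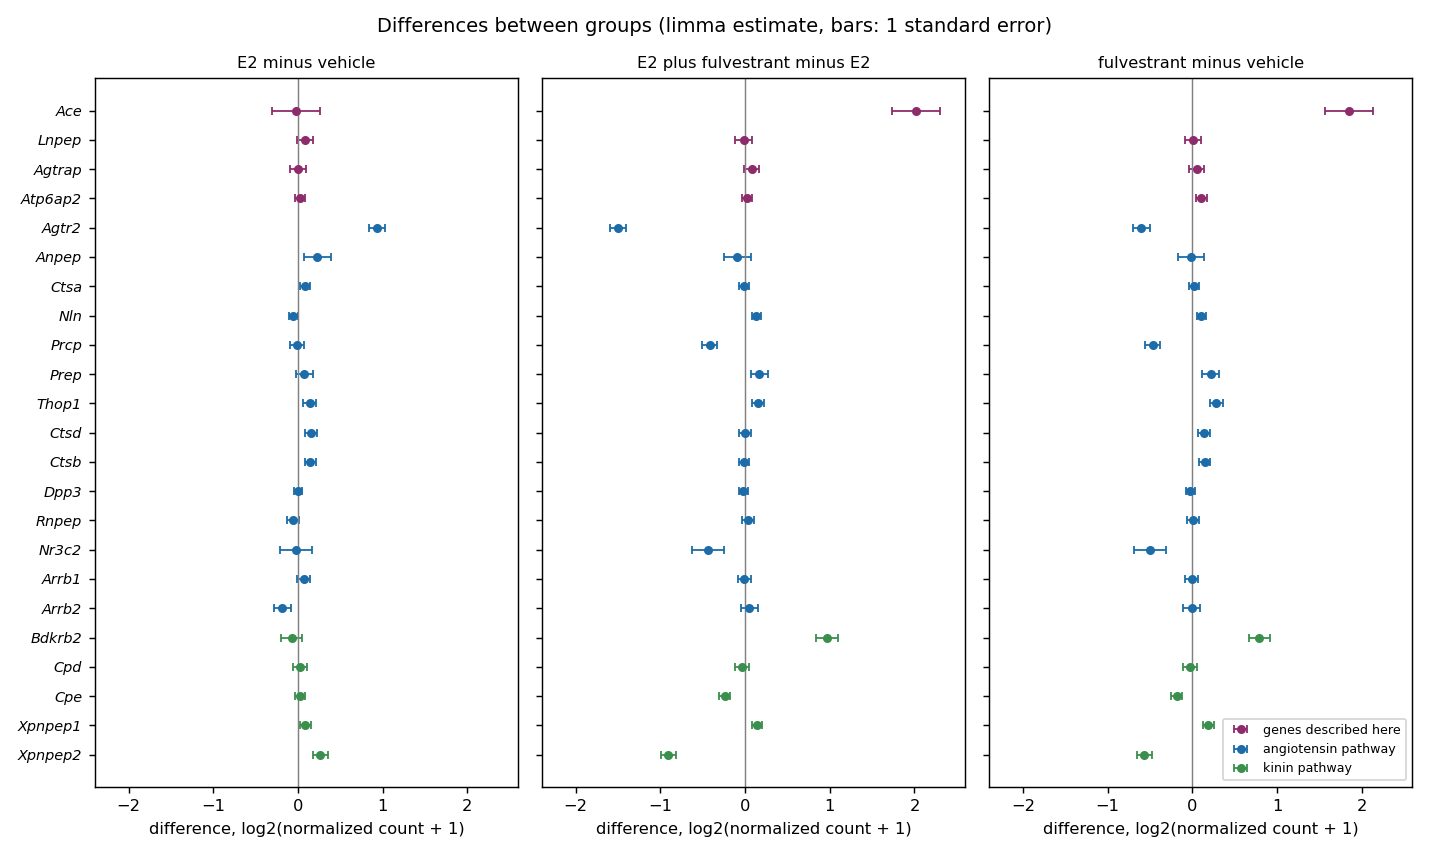
Differences between groups on the log2(normalized count + 1) scale for Ace, Lnpep, Agtrap and Atp6ap2, 14 other angiotensin pathway genes and 5 kinin pathway genes, as points with bars of 1 standard error. Ace lies at 2.02 and 1.85 in the panels of fulvestrant added to E2 and of fulvestrant over vehicle, Agtr2 at -1.51 and -0.60 and Bdkrb2 at 0.97 and 0.79, while most other genes lie near 0.

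ACE is also a kininase, and 5 of 12 listed kinin genes were in the table. With E2 over vehicle 0 of 5 passed the limma test (1 at an unadjusted p under 0.05, beside 10.1% of all genes). Of all genes, 0.0756% were called higher there and 0.0% lower. In each of the comparisons of E2 with E2 plus fulvestrant and of fulvestrant with vehicle, 1 gene was higher and 1 lower (3 and 4 of the 5 at an unadjusted p under 0.05, beside 27.3% and 30.5% of all genes). Over all genes the called shares were 4.62% higher and 4.97% lower in the first and 6.76% and 5.69% in the second. Bdkrb2, the constitutive bradykinin receptor gene, was at 98.2, 364.5 and 326.1 normalized counts with vehicle, 82.9, 356.7 and 336.7 with E2, 142.8, 718.6 and 727.6 with E2 plus fulvestrant and 128.2, 720.0 and 658.4 with fulvestrant. Like Ace, it was lowest in replicate 1 of each group and higher in each fulvestrant-treated sample than in its untreated counterpart. It was 1.95-fold higher with E2 plus fulvestrant than with E2 (log2 difference 0.97, adjusted p = 0.000856) and 1.73-fold higher with fulvestrant than with vehicle (0.79, adjusted p = 0.00231). The second call for Bdkrb2 was lost without replicate 2 (0.70, adjusted p = 0.0855) or replicate 3 (0.68, adjusted p = 0.0877), and both were lost without the block (adjusted p = 0.995 and 0.957).

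Xpnpep2, a membrane aminopeptidase that also inactivates bradykinin, went the other way. It was at 1198, 693.4 and 601.9 with vehicle, 1333, 761.0 and 858.1 with E2, 680.5, 442.7 and 438.0 with E2 plus fulvestrant and 827.7, 424.9 and 434.6 with fulvestrant. In E2 it exceeded E2 plus fulvestrant 1.87-fold (limma log2 difference 0.91, adjusted p = 0.000156) and fell by 0.57 with fulvestrant below vehicle (adjusted p = 0.00209). Without the block these adjusted p-values were 0.544 and 0.886, and without replicate 2 the second was 0.0619.

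**Figure D3:**
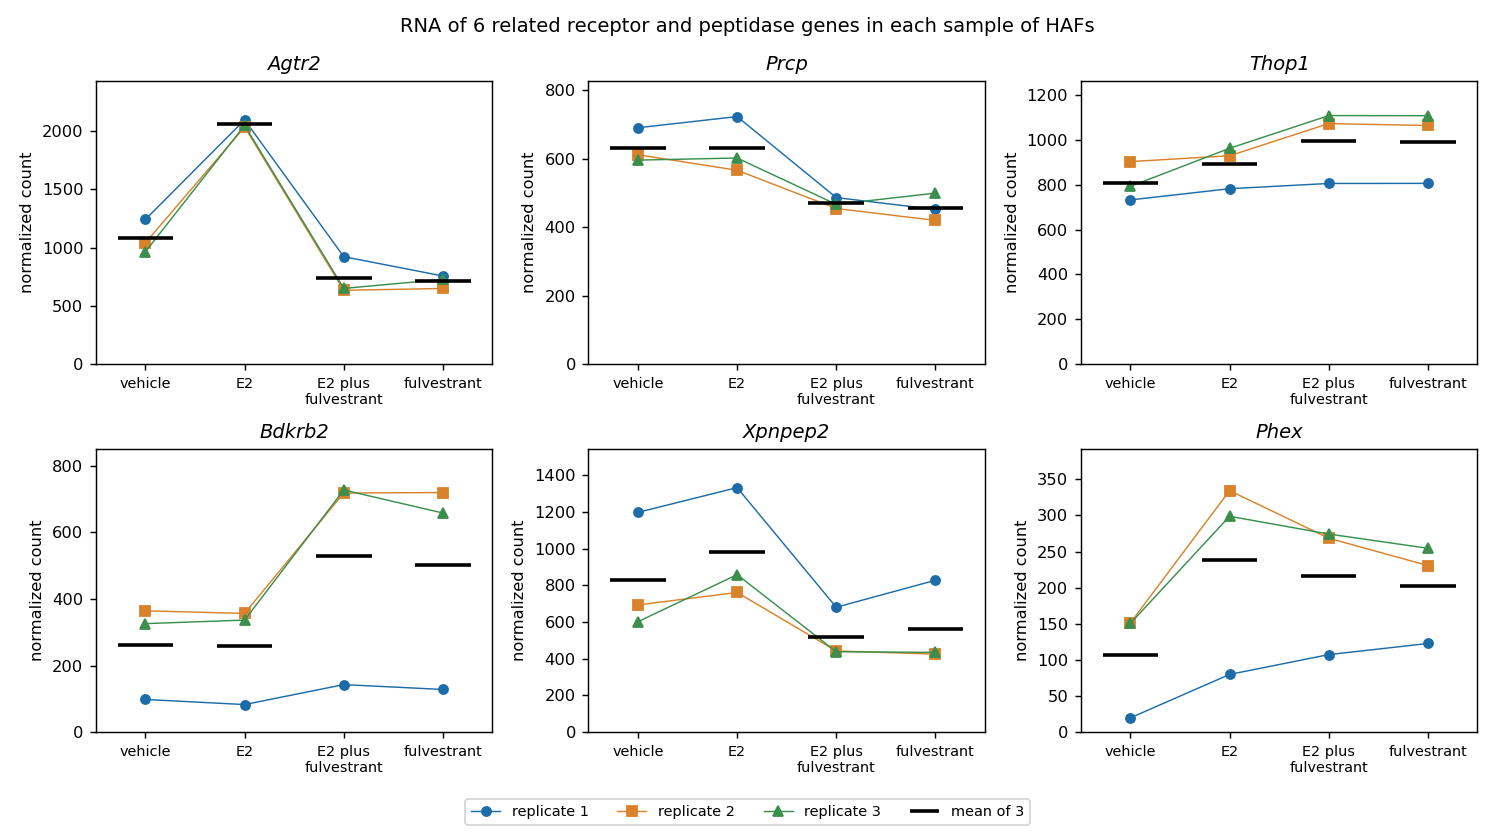
Normalized counts (linear axes from 0) of Agtr2, Prcp, Thop1, Bdkrb2, Xpnpep2 and Phex in each of the 12 samples, with lines joining samples of the same replicate number and black bars for the mean of 3. Agtr2 is highest in the 3 E2 samples (2035 to 2096), and Bdkrb2 and Xpnpep2 shift in opposite directions in the samples with fulvestrant.

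Lnpep belongs to the M1 aminopeptidases, of which 7 of 9 others were in the table. With limma, 3 of the 7 were at an unadjusted p under 0.05 for E2 against E2 plus fulvestrant, beside 27.3% of all genes. For fulvestrant against vehicle it was 2 of the 7, beside 30.5%. Among them Trhde, which degrades thyrotropin-releasing hormone, exceeded its E2 plus fulvestrant level in the E2 group (limma log2 difference 0.55, adjusted p = 0.0259) and fell by 0.78 with fulvestrant below vehicle (adjusted p = 0.00393), as the 1 of 7 called in each, where 4.62% of all genes were called higher in the first and 5.69% lower in the second. Its level was 1204 to 2905 normalized counts in replicate 1 and 176.8 to 327.4 in replicates 2 and 3. The first was lost without replicate 1 (0.35, adjusted p = 0.148), 2 (0.63, adjusted p = 0.0823) or 3 (0.68, adjusted p = 0.101), without replicate 1 or 2 of the E2 group (0.48 and 0.52), without replicate 1 or 3 of the E2 plus fulvestrant group (0.36 and 0.61), in a fit of only the 2 groups (adjusted p = 0.0539) and without a variance trend (adjusted p = 0.0545). The second was -0.73 without replicate 3 (adjusted p = 0.0784). Without the block neither was called (adjusted p = 0.995 and 0.957).

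Of the M13 endopeptidases, the family of Mme, 4 of 6 others were in the table, and 1 was called, as higher in fulvestrant over vehicle, beside 6.76% of all genes. In that comparison 3 of the 4 were at an unadjusted p under 0.05 (limma), beside 30.5% of all genes. Their median log2 difference was 0.42, against 0.01 over all genes. For E2 against E2 plus fulvestrant it was 1 of the 4, beside 27.3% of all genes. Phex, an endopeptidase of phosphate and bone metabolism, was at 19.9, 151.4 and 150.6 normalized counts with vehicle, 79.9, 334.4 and 298.9 with E2, 107.3, 268.5 and 274.3 with E2 plus fulvestrant and 122.7, 230.6 and 254.6 with fulvestrant. The vehicle sample was the lowest of each replicate number. The difference of fulvestrant over vehicle was 1.31 (limma adjusted p = 0.017), or 0.68 without replicate 1 (adjusted p = 0.00443), 1.66 without replicate 2 (adjusted p = 0.0636) and 1.59 without replicate 3 (adjusted p = 0.103). It was also lost without the block (adjusted p = 0.89) and in a fit of only the 2 groups (0.0973). With E2 over vehicle it was 1.36 (adjusted p = 0.254), or 1.06 without replicate 1 (adjusted p = 0.00822).

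Atp6ap2 was set beside 17 of 21 listed subunits of the vacuolar proton pump. Of these, 1 was called: Atp6v1h, a regulatory subunit of the cytosolic part, was lower in E2 than in E2 plus fulvestrant (limma log2 difference -0.33, adjusted p = 0.00141) and rose by 0.35 with fulvestrant over vehicle (adjusted p = 0.000869). Its groups overlapped, and the calls were lost without replicate 2 for the first (adjusted p = 0.0702), without replicate 3 for the second (0.0519) and without the block for both (0.946 and 0.912). That 1 of 17 stood beside 4.97% of all genes called lower in the first comparison and 6.76% called higher in the second. At an unadjusted p under 0.05 there were 4 of 17 in the first and 8 of 17 in the second, beside 27.3% and 30.5% of all genes, and the median log2 difference of the 17 was -0.05 and 0.15, against -0.01 and 0.01 over all genes. With E2 over vehicle 0 of 17 were called (limma), beside 0.0756% of all genes higher and 0.0% lower. At an unadjusted p under 0.05 were 0 of 17, beside 10.1% of all genes.

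In the comparison of E2 plus fulvestrant with fulvestrant alone, 0 of the 14 angiotensin, 5 kinin, 7 M1, 4 M13 and 17 proton pump genes passed the limma test, and 0 did so at an unadjusted p under 0.05. Over all genes 0.0% passed, with 255 at an unadjusted p under 0.05. The interaction of E2 and fulvestrant was likewise called for 0.0% of genes (limma, 501 at an unadjusted p under 0.05).

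Likeness to Ace was measured by Pearson's r over the 12 samples of log2(normalized count + 1), after the mean of each replicate number was subtracted. The 5 genes most like Ace were Glul (r = 0.998), Fkbp5 (0.996), Mcl1 (0.995), Pptc7 (0.995) and Selenop (0.994). The 5 most opposite were Pdgfd (-0.994), Clec11a (-0.990), Pycr1 (-0.989), Epha7 (-0.988) and Ccn3 (-0.987). The 12 points share libraries and the division by fulvestrant, so r is given as a description. Among the genes chosen with Ace, r was 0.17 for Lnpep, 0.62 for Agtrap and 0.55 for Atp6ap2.

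Glul, which encodes glutamine synthetase, was at 761.0, 1355 and 1202 normalized counts with vehicle and 3058, 2664 and 2716 with fulvestrant. Fkbp5, a co-chaperone of steroid receptors, was at 306.6, 956.1 and 940.7 with vehicle and 9974, 4136 and 3957 with fulvestrant. The Fkbp5 difference of fulvestrant over vehicle was 5.02 in replicate 1 and 2.11 and 2.07 in replicates 2 and 3, so like Ace it was widest in replicate 1. Selenop, the plasma selenium carrier, had differences of 1.15, 0.48 and 0.55 in the same order. On the opposite side, Epha7, an ephrin receptor gene, was at 717.9, 216.6 and 212.9 with vehicle and 109.7, 105.8 and 107.0 with fulvestrant, and Ccn3, a matricellular protein gene, had differences of -2.76, -1.10 and -0.92. Without replicate 1 the differences of fulvestrant over vehicle were 2.09 for Fkbp5 and -1.01 for both Epha7 and Ccn3, against 3.07, -1.57 and -1.59 with it. As these genes were picked for their likeness to Ace, their differences are not further evidence for its pattern.

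**Figure D4:**
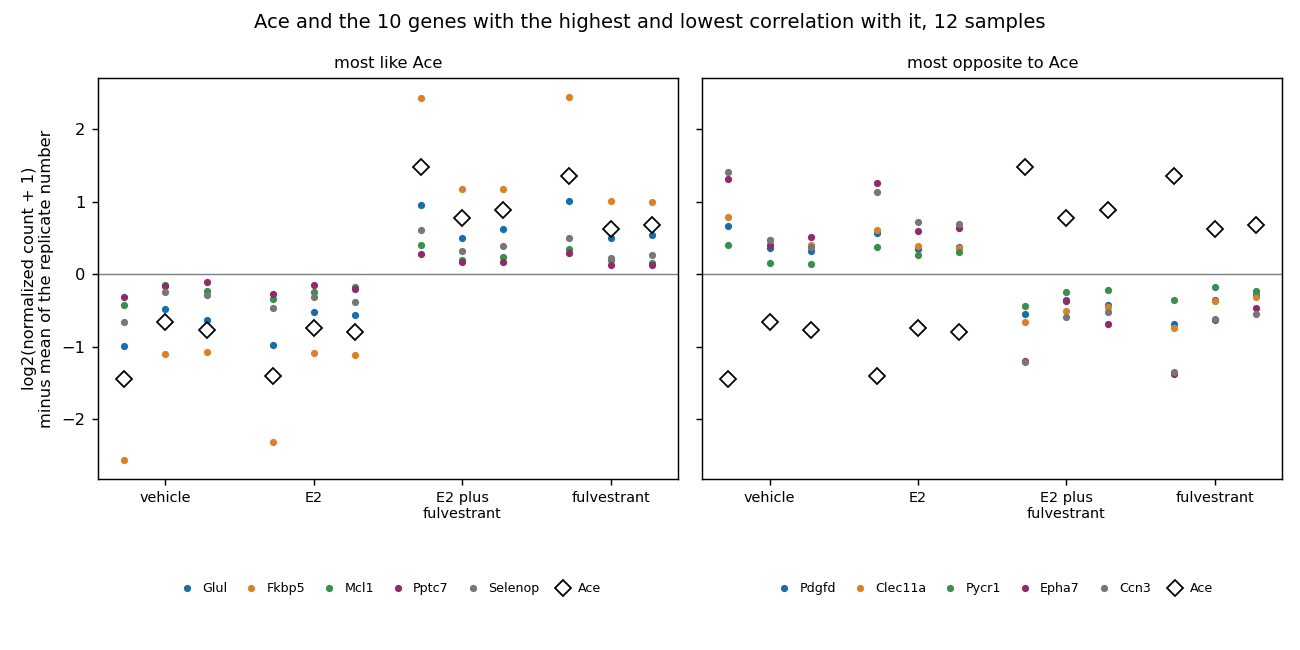
Values on the log2(normalized count + 1) scale minus the mean of the replicate number, for Ace (open diamonds, both panels), the 5 genes with the highest r and the 5 with the lowest r with Ace (dots), with replicates 1, 2 and 3 from left to right in each group. The 5 like genes lie below 0 in the 6 samples without fulvestrant and above 0 in the 6 with it, the 5 opposite genes the other way, and the distances from 0 are widest in replicate 1.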

How the data were processed

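RNA was measured by RNA-Seq in 12 samples of HAFs in 4 groups of 3, assigned from the submitters' labels. The methods of the study and the submitters' processing notes name Trimmomatic 0.39, STAR 2.5.2 on mm10, strand-specific counting with HTSeq 0.13.5, removal of low counts and the median of ratios of DESeq2 1.37. The deposited signal is a normalized count for each gene in each sample, made by the authors from read counts and 1 factor per library. Within 0.01 reads, 100.0% of values were whole reads divided by that factor, but no test on counts was run on them. The table has 0 columns that could not be tied to a sample. Symbols came from a reference list of gene names, or from GENCODE M21 where that list held none. Positions came from GENCODE M21, and both were found for 13149 of 13233 identifiers. Promoter windows came from RefSeq on GRCm38.p6.

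From these values, log2(value + 1) was fitted with limma 3.58.1 (R 4.3.3) on all 12 samples with the group and the replicate number as terms, eBayes with a variance trend and Benjamini-Hochberg adjustment over 13233 genes. Calls needed an adjusted p below 0.05 with a fold above 1.2, as in the study. A fold is on the log2(value + 1) scale and understates the change of low genes. The fit was tested on simulated data. The pairing follows the numbers in the sample titles: deviations from the group means correlated at 0.63 to 0.92 in all 18 same-number pairs. Replicate 1 gave 0.84 to 0.92 in its 6 pairs. The 12 pairs of replicates 2 and 3 gave 0.63 to 0.80, about the same as replicate 2 with replicate 3 (0.63 to 0.79), so the numbers set replicate 1 apart and did not tell 2 from 3. Replicate 1 with 2 or 3 gave -0.86 to -0.71. The study also names ComBat_seq and removeBatchEffect for batch variation without saying what the batches were, so the replicate number as block is an assumption made here.

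The genes and lists were chosen with earlier results of these data known, the lists from textbook membership. Named were the 6 listed genes, called genes of the angiotensin list, up to 3 called genes each of the kinin, M1, M13 and proton pump lists, Agt, Agtr1a, Agtr2, Mas1, Ren1, Pgr, and the 5 genes with the highest and 5 with the lowest r with Ace. Gm11651, Tek, Notch3, Esr1, Col1a1, Col1a2, Col3a1, Lum, Vim, Cd14, Cd68, Lyz2, Myh11, Anpep and Prep were named after values were seen. One further gene of the rule is left out of the text. Python 3.11.15 with pandas 2.3.3, numpy 2.4.6 and matplotlib 3.10.9 made the tables and plots. Alternatives were no replicate block, only the 2 groups compared, a pseudocount of 10, a mean of at least 100, no variance trend, CPM scaling, quantile normalization, and leaving out each sample or replicate number.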

Additional observations from a re-analysis of the deposited data

How the results depend on the processing

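The Ace difference kept its direction under each alternative run for E2 plus fulvestrant against E2 and for fulvestrant against vehicle: leaving out a sample or a replicate number gave -2.28 to -1.60 for E2 minus E2 plus fulvestrant and 1.37 to 2.12 for fulvestrant minus vehicle. For E2 minus vehicle these ran from -0.34 to 0.26 and for E2 plus fulvestrant minus fulvestrant from -0.14 to 0.46, around values near 0.

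The replicate block set the counts of calls. Without it 1 gene in place of 10 was called for E2 against vehicle, 69 in place of 1270 for E2 against E2 plus fulvestrant and 72 in place of 1648 for fulvestrant against vehicle, all of them among the genes called with it, and the angiotensin pathway list had 0, 1 and 0 calls in place of 1, 2 and 3. Fitting only the 2 groups compared gave 57 genes for E2 against vehicle, 692 for fulvestrant against vehicle and 1 of the pathway list in the latter, and no variance trend gave 3 genes and 0 of the list for E2 against vehicle. Leaving out a sample or a replicate number gave 0 to 59 genes for E2 against vehicle, 316 to 1611 for E2 against E2 plus fulvestrant, 399 to 2312 for fulvestrant against vehicle, 0 to 4 for E2 plus fulvestrant against fulvestrant and 0 to 11 for the interaction. For the pathway list these were 0 to 1, 1 to 2 and 0 to 5 in the first 3 comparisons. The highest gene counts came without replicate 1 and, in the first 3 comparisons, the lowest without replicate 2 or 3. The cause was not tested.

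Of 28 calls for genes outside the 4 described first and the 10 picked by r, 26 were lost under at least 1 alternative, those of Agtr2 and Pgr between E2 and E2 plus fulvestrant under none, and 0 reversed. Over the 613 combinations of a call and an alternative, 505 kept the call and 108 lost it, 40 of the latter outside those that leave out samples. The planned edgeR and DESeq2 alternatives were not run. Ace rests on few reads in replicate 1 of vehicle and E2, and its level there is the least precise.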
